A study of Mus musculus with 8 samples.

Results

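Spp1, Ibsp, Dmp1 and Mepe encode the bone members of the small integrin-binding ligand, N-linked glycoproteins, and these 4 genes were picked by symbol from the 31053 genes of a single-cell RNA sequencing study of mouse skull bone. Cells were released from parietal bones of pups 4–5 days after birth, and each of 8 droplet libraries held cells pooled from several animals of a single genotype. The 4 WT libraries (S1, S2, S5 and S6) came from wild type pups and the 4 Het libraries (S3, S4, S7 and S8) from pups heterozygous for G610C, a glycine-to-cysteine substitution in the chain of type I procollagen that Col1a2 encodes, used as a model of osteogenesis imperfecta. Both groups were of strain B6.129(FVB)-Col1a2tm1Mcbr/J. Libraries S1 to S4 were made with version 3 of the reagent kit and S5 to S8 with version 3.1. Cell Ranger was changed between the same libraries. Kit, software and other differences between these sets of libraries, such as the animals pooled, cannot be told apart. Reads were taken from the 3′ ends of transcripts and do not cover the substitution, so the genotype labels could not be checked in these data.

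Osteoblasts (OBs) were the cells with at least 10 Col1a1 UMIs (unique molecular identifiers, each a counted transcript) and at least 2 UMIs in at least 2 of Runx2, Sp7 and Ibsp. By the share of Col1a1 in all UMIs of a cell they were divided into early OBs (eOBs, under 0.75%), differentiating OBs (dOBs, 0.75–3.5%) and mature OBs (mOBs, over 3.5%). The 46420 cells that passed the cell filter held 2671 OBs, of which 379 were eOBs, 1217 dOBs and 1075 mOBs, and the 43749 other cells served for comparison. Because Ibsp helped to select the OBs, its levels in OBs and its differences between stages and genotypes are given as a description, with a test only in OBs chosen without it. Levels are given as %UMI, the percent of all UMIs of a group of cells that belonged to a gene. A 3′ UMI counts a transcript once, whatever its length.

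The 4 proteins are acidic, heavily phosphorylated glycoproteins that osteoblasts and osteocytes secrete into the mineralizing matrix, where they bind calcium, hydroxyapatite and, through an RGD motif, integrins on cells. Osteopontin (Spp1) slows the growth of mineral crystals and is also made by macrophages, osteoclasts and smooth muscle, whereas bone sialoprotein (Ibsp) promotes crystal nucleation and is made mainly by osteoblasts and hypertrophic chondrocytes. Dentin matrix protein 1 (Dmp1) is a product of late osteoblasts and osteocytes, is cleaved by proteases of the Bmp1 and Tll1 family, and its loss raises Fgf23 and wastes phosphate. Matrix extracellular phosphoglycoprotein (Mepe) is an osteocyte protein whose acidic C-terminal peptide inhibits mineralization and is degraded by the endopeptidase Phex.

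The 4 genes lay in a row on the plus strand of chromosome 5 with the tooth gene Dspp, and the 5 genes spanned 270.3 kb (GRCm38, GENCODE M21 annotation). Their order was Dspp (chr5:104170712-104180127), Dmp1 (chr5:104202613-104214102), Ibsp (chr5:104299171-104311469), Mepe (chr5:104325329-104338611) and Spp1 (chr5:104435118-104441050). Ibsp and Mepe were the closest neighbours, 13859 bases apart, and 96506 bases separated Mepe from Spp1. The 4 coding genes held 6, 7, 3 and 6 exons in their longest transcripts, from Dmp1 to Spp1. Spp1 overlapped the gene model Gm42793, so reads in the overlap may have been assigned to either or dropped.

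The promoters are shown because neighbouring genes with separate patterns across cells are compared below. Each run is the plus strand from 250 bases before to 50 bases after a RefSeq transcript start (GRCm38.p6). They cover chr5:104202367-104202666 for Dmp1, chr5:104299037-104299336 for Ibsp, chr5:104325079-104325378 for Mepe and chr5:104434861-104435160 for Spp1. The RefSeq start of Ibsp lay 116 bases inside the GENCODE gene. Capitals mark exact matches, on either strand, to the RUNX core (ACCACA or TGTGGT), the CCAAT box (CCAAT or ATTGG), the TATA box (TATAAA or TTTATA) and the CRE core (TGACGT or ACGTCA).
Dmp1: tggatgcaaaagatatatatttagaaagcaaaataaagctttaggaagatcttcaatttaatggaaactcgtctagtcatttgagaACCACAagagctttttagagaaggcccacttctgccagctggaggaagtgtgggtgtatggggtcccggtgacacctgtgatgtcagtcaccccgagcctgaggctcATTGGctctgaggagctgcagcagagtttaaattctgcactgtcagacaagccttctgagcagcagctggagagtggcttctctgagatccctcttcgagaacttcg
Ibsp: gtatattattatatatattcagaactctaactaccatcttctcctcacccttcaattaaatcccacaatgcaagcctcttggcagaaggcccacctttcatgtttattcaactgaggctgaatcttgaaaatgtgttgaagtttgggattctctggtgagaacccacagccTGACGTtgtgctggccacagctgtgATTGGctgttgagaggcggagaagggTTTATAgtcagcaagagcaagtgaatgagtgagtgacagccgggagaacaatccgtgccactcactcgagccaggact
Mepe: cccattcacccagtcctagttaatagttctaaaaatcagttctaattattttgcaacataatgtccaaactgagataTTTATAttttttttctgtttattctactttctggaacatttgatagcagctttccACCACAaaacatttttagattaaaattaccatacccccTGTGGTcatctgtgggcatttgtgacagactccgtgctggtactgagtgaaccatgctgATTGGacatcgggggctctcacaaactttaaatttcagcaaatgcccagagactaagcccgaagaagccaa
Spp1: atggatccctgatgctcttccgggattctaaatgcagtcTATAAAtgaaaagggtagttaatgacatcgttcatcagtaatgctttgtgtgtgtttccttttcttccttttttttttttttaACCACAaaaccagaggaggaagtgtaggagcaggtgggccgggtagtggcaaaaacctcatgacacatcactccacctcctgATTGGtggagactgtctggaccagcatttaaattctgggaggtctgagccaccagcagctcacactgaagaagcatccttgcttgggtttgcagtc

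All 4 promoters held a CCAAT box match, which 37.4% of 32817 promoters of this length held. A RUNX core was found in the promoters of Dmp1, Mepe and Spp1 (16.8% of all promoters), a TATA box match in those of Ibsp, Mepe and Spp1 (13.6%), and a CRE core in that of Ibsp alone (7.5%). The TATA match of Ibsp began 28 bases before the start, whereas those of Mepe and Spp1 began 173 and 211 bases before it. TGANTCA, the AP-1 letters, was in none of the 4 windows and in 7.8% of all promoters. These matches describe letters in these windows and are not binding sites.

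The libraries held 30480239 to 85162035 UMIs over 4975 to 20175 barcodes, and no pair of libraries shared more than 24 barcodes. The median mOB of a library held 12348 to 21116 UMIs. OB markers that were not used for selection were present in OBs, with Col1a2 at 1.86–4.57 %UMI, Bglap at 0.0259–1.07 %UMI and Alpl at 0.0292–0.0731 %UMI over libraries, whereas Phospho1 was listed at no more than 0.000387 %UMI. Ptprc, which defines haematopoietic cells, stayed at or below 0.000858 %UMI in OBs. In mOBs the summed haematopoietic markers were 0.0671 and 0.0488 %UMI in S1 and S2 and at most 0.0164 %UMI in the other libraries. Erythroid markers in mOBs ranged from 0.00271 to 1.27 %UMI, and at least 3 of them were detected in 86.3% and 100% of mOBs of S1 and S2. Chondrocyte markers in mOBs reached 0.0227–0.291 %UMI in Het and 0.0024–0.102 %UMI in WT libraries. Smooth muscle or pericyte markers reached 0.0221–0.0453 %UMI in Het and 0.00636–0.0219 %UMI in WT libraries, the only one of 6 marker classes whose ranges did not overlap between the genotypes. The part of these other transcripts in the results below was not tested.

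OBs made up 5.75% of cells and 10.9% of UMIs but held most transcripts of all 4 genes. They held 76.0% of 647515 Spp1 UMIs, 87.6% of 186414 Ibsp UMIs, 83.1% of 12026 Dmp1 UMIs and 65.8% of 295 Mepe UMIs. mOBs alone held 39.4% of the Spp1, 74.1% of the Ibsp and 60.5% of the Dmp1 UMIs, whereas 55.3% of the Mepe UMIs lay in eOBs. The log2 difference between OBs and all other cells was 5.00 ± 0.26 (SE) for Spp1 (adjusted p = 1.47e-06) and 5.95 ± 0.44 for Dmp1 (adjusted p = 7.29e-06), by edgeR's quasi-likelihood test over 8 libraries. Of all genes tested, 13.8% were higher and 23.8% lower in OBs. Ibsp, the selection gene, differed by 6.88 on the same scale. The fitted value of Mepe was 4.42, and 2.14 with OBs selected by Runx2 and Sp7 together. It is given with no test, because most Mepe UMIs of OBs lay in a few eOBs of S1 and S4.

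Among the other cells, the level of Spp1 in haematopoietic-like cells was 0.0167 ± 0.0050 %UMI (SD, n = 8). At least 1 Spp1 UMI was present in 37.2–74.9% of these cells at median depths of 3166 to 16288 UMIs, compared with 64.3–98.6% of mOBs. Ibsp was detected in 5.19–22.1% of haematopoietic-like cells and Dmp1 in 0.905–2.60%. The class holds macrophages and osteoclasts, which can make osteopontin, and no empty droplets were analysed, so how much of these shares is free RNA was not tested. No Mepe UMI was counted in the 6421 haematopoietic-like cells, which allows a share of cells with a UMI of up to 0.0467%.

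By the mean over libraries, Spp1 levels were highest in eOBs (1.58 ± 1.23 %UMI), mOBs (1.43 ± 0.67) and dOBs (1.31 ± 1.29), in this order. The mOB level was nevertheless above the eOB level in 5 of 8 libraries. Next came cells of no class (0.204 ± 0.237) and smooth muscle or pericyte-like cells (0.0511 ± 0.0445). Osteoclast-like cells, a known source of osteopontin, followed at 0.0213 ± 0.0103 %UMI, then erythroid-like cells (0.0209 ± 0.0125, n = 6), macrophage-like cells (0.0200 ± 0.0092), endothelial-like cells (0.0158 ± 0.0148), fibroblast-like cells (0.0135 ± 0.0049, n = 4) and chondrocyte-like cells (0.0129 ± 0.0078). All neighbours in this order overlapped in their spread. The osteoclast-like level, over 254 cells, lay within the spread of the haematopoietic-like cells as a whole.

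Cells outside the OB selection that were rich in Spp1 mostly carried collagen transcripts as well. The 696 such cells with at least 20 Spp1 UMIs held 70.8% of the Spp1 UMIs of all other cells, and 515 of them (74.0%) had at least 10 Col1a1 UMIs. Of the 43053 other cells with fewer Spp1 UMIs, 35.0% had as much Col1a1, at a median depth of 6440 UMIs compared with 6217 in the Spp1-rich cells. Of these 696 cells, 556 belonged to no marker class, 44 were haematopoietic-like and 11 of those were osteoclast-like. Of the 106 cells outside the OBs with at least 20 Ibsp UMIs, 94 belonged to no class, 3 were haematopoietic-like and 86 had at least 10 Col1a1 UMIs. Of the 68 with at least 5 Dmp1 UMIs, 62 belonged to no class, none was haematopoietic-like and 59 had at least 10 Col1a1 UMIs. Dmp1 was also found at 0.00157 ± 0.00174 %UMI in smooth muscle or pericyte-like cells and at 0.00153 ± 0.00157 in cells of no class, compared with 0.000226 ± 0.000133 in haematopoietic-like cells.

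Spp1 did not increase step by step with OB stage. In eOBs it was at 2.52 and 4.03 %UMI in WT S1 and S2, 0.868 and 2.21 in Het S3 and S4, 0.631 and 1.05 in WT S5 and S6, and 0.579 and 0.751 in Het S7 and S8. In dOBs, in the same order, it was at 3.74, 2.92, 0.677, 1.16, 0.383, 0.50, 0.540 and 0.552 %UMI. In mOBs it was at 1.90, 2.86, 1.5, 1.31, 1.12, 1.06, 0.942 and 0.793 %UMI. WT S1 and S2 stood above all other libraries at every stage, and the mOB level exceeded the dOB level in 6 of 8 libraries, the exceptions being S1 and S2. In 7 of 8 libraries dOBs held less Spp1 than eOBs.

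Between stages Spp1 was higher in mOBs than in dOBs by 0.91 ± 0.19 on the log2 scale (adjusted p = 0.00106) and than in eOBs by 0.59 ± 0.19 (adjusted p = 0.0162), whereas dOBs and eOBs differed by -0.32 ± 0.19 (adjusted p = 0.279). These fits scale libraries by TMM, which trims the genes that differ most. Of all genes, 13.0% were higher and 13.8% lower in mOBs than in dOBs, 7.20% and 8.15% in dOBs than in eOBs, and 17.7% and 18.1% in mOBs than in eOBs. Without scaling beyond the UMI total, the median gene fell by 0.38 from dOBs to mOBs and by 0.47 from eOBs to mOBs, and the mOB to eOB difference of Spp1 was 0.13 (adjusted p = 0.571). With each cell thinned to 2000 UMIs, so that all cells weigh the same, the mOB to dOB difference was 0.25 (adjusted p = 0.262) and the mOB to eOB difference 0.17 (adjusted p = 0.461). Leaving out OBs with 3 markers of another cell class gave 0.36 for mOBs and dOBs (adjusted p = 0.157) and turned the mOB to eOB difference to -0.15. The mOB to eOB difference was also not called with OBs selected at 3 UMIs (0.33), under 5% mitochondrial UMIs (0.61) and without Het S3 (0.48, adjusted p = 0.0606).

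Ibsp differed from Spp1 in that it was higher at each later stage. It was at 0.119, 0.0962, 0.0766, 0.181, 0.0367, 0.0251, 0.0586 and 0.0618 %UMI in eOBs of S1 to S8. In dOBs the levels were 0.342, 0.470, 0.108, 0.278, 0.0396, 0.0467, 0.113 and 0.124 %UMI. In mOBs they were 0.326, 0.787, 1.17, 1.88, 0.466, 0.270, 0.411 and 1.34 %UMI. The mOB level was above the eOB level in 8 of 8 libraries, by 2.74-fold in S1 to 21.7-fold in S8, and S1 was the single library without a step from dOBs to mOBs. On the fitted log2 scale the differences were 1.16 from eOBs to dOBs and 2.70 from dOBs to mOBs, given with no test because Ibsp helped to choose the cells.

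Dmp1 rose at the last step, from dOBs to mOBs. In eOBs it was at 0.0147, 0.0349, 0.000414, 0.0367, 0.00632, 0.00494, 0.000984 and 0.00111 %UMI in S1 to S8. The dOB levels were 0.0240, 0.0150, 0.0132, 0.0132, 0.00603, 0.0101, 0.0126 and 0.0121 %UMI, and the mOB levels 0.0305, 0.0477, 0.0801, 0.0361, 0.0243, 0.0370, 0.0362 and 0.0484 %UMI. The mOB level was above the dOB level in 8 of 8 libraries, and S4 was the library in which eOBs matched mOBs. Dmp1 rose from dOBs to mOBs by 2.08 ± 0.42 on the log2 scale (adjusted p = 8.66e-04) and from eOBs to mOBs by 2.63 ± 0.47 (adjusted p = 1.41e-04), and the dOB to eOB difference was 0.55 ± 0.46 (adjusted p = 0.49). Leaving out OBs with 3 markers of another cell class, which kept 13 of 24 sums, gave 0.94 (adjusted p = 0.121) and 0.85 (adjusted p = 0.312).

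**Figure D1:**
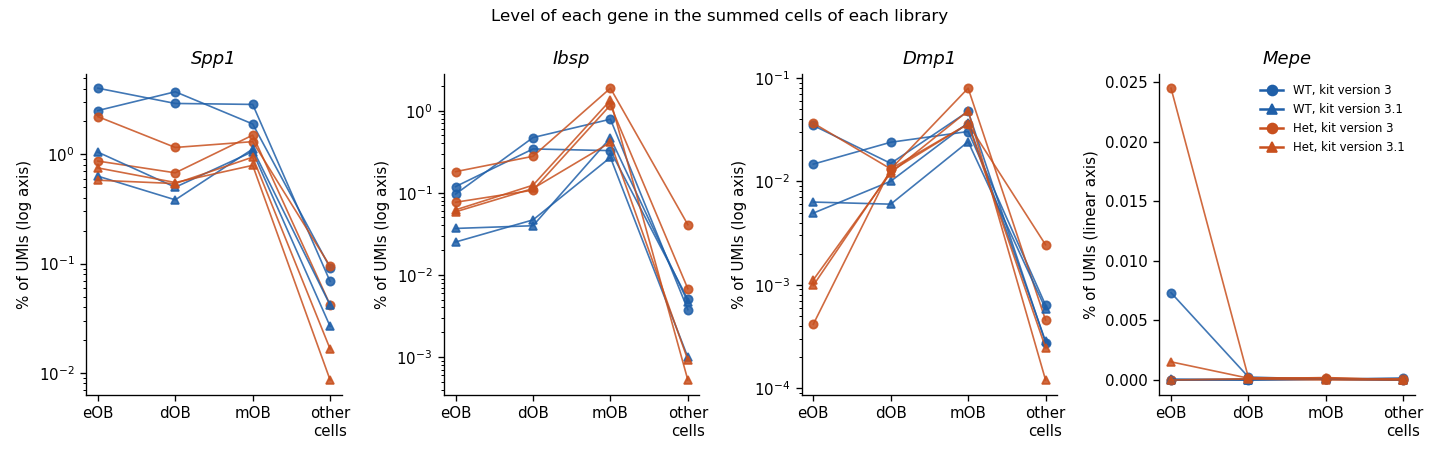
Level of Spp1, Ibsp and Dmp1 (%UMI, log axis) and of Mepe (%UMI, linear axis) in eOBs, dOBs, mOBs and all other cells, with 1 line per library, coloured by genotype, and the marker giving the kit version. Most lines for Ibsp and Dmp1 peak in mOBs, those for Spp1 overlap over the 3 OB stages, and Mepe stands out in eOBs of 1 Het (S4) and 1 WT library (S1).

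OBs were also divided more finely by Col1a1, with libraries of under 10 cells in a bin left out (S2 at 2–3.5%, S1 at 3.5–5% and S8 at 5–8%). Mean Ibsp was 0.0818, 0.158 and 0.187 %UMI in OBs with Col1a1 under 0.75%, 0.75–2% and 2–3.5%, and 0.922, 0.731 and 0.984 %UMI in OBs with 3.5–5%, 5–8% and over 8%. Dmp1 stayed between 0.0125 and 0.0171 %UMI in the first 4 bins and was at 0.0369 and 0.0746 in the last 2. Spp1 went from 1.58 through 1.49, 1.10 and 0.942 to 1.91 and 1.92 %UMI. The SD of Spp1 between libraries was 0.718 %UMI in the last bin and 1.11–1.60 in the others. With all 8 libraries in every bin, mean Spp1 was 1.08 at 2–3.5% and 1.36 %UMI at 3.5–5%, so the lowest bin depends on which libraries are counted. In the 3.5–5% bin Ibsp was at 1.51 ± 1.11 %UMI in 4 Het libraries and at 0.141 ± 0.158 in 3 WT libraries, whereas over 8% Col1a1 it was at 1.23 ± 0.57 and 0.740 ± 0.351.

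**Figure D2:**
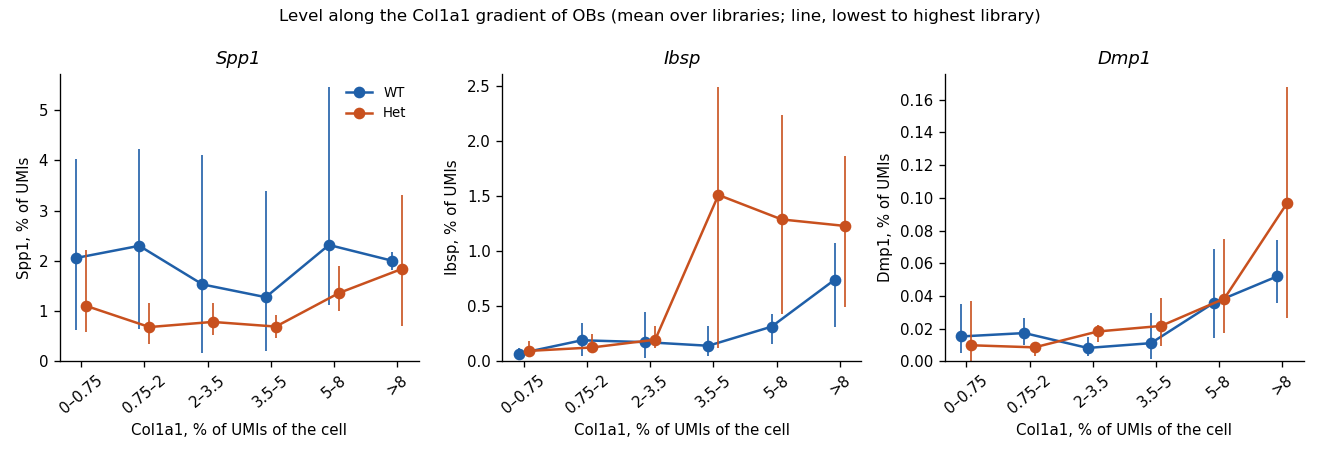
Level of Spp1, Ibsp and Dmp1 (%UMI) in OBs by bin of Col1a1 (percent of UMIs), with the mean over WT and over Het libraries and a vertical line from the lowest to the highest library. Mean Ibsp is 1.51 %UMI in Het and 0.141 in WT at 3.5–5% Col1a1, where the ranges overlap, and Dmp1 is highest over 8% in both genotypes.

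Within mOBs the transcripts were concentrated in few cells. The tenth of mOBs with the highest level held 32.4–72.2% of the Spp1 UMIs of a library, 43.7–87.4% of its Ibsp UMIs and 58.4–94.0% of its Dmp1 UMIs. The median mOB held 1.55 and 1.97 %UMI of Spp1 in S1 and S2, 0.918 and 0.838 in S3 and S4, and 0.0353, 0.0405, 0.0119 and 0.293 in S5 to S8. The mOB with most Spp1 reached 14.8–16.2 %UMI in S5 and S7. Haematopoietic-like cells held 0.0114–0.0272 %UMI when summed per library. This is a measure unlike a median over cells, and no median over haematopoietic-like cells was taken.

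Spp1 was most abundant in the mOBs that also held Dmp1. In the 382 mOBs with at least 1 Dmp1 UMI, Spp1 was at 1.91, 3.39, 2.65, 2.08, 2.79, 2.92, 3.13 and 1.71 %UMI in S1 to S8. In the 693 mOBs with none it was at 1.86, 1.78, 0.676, 0.572, 0.271, 0.284, 0.0607 and 0.210 %UMI. The log2 ratio was above 0 in 8 of 8 libraries and averaged 2.52 ± 1.73 (SD), with an exact two-sided sign-flip p of 0.0078, the smallest that 8 libraries allow (adjusted p = 0.0234 over 3 genes). S1 showed the smallest ratio, 0.036, and the mean was 1.20 within kit version 3 and 3.85 within version 3.1. Under 4 alternatives, thinning to 2000 UMIs among them, the mean Spp1 ratio was 1.74 to 2.77. At full depth the groups were matched for neither depth nor Col1a1. Mean Spp1 and Dmp1 were both higher in OBs with 5–8% Col1a1 (1.91 and 0.0369 %UMI) than with 3.5–5% (0.942 and 0.0171). The part of Col1a1 in the Spp1 ratio was not tested. Ibsp was higher in Dmp1-positive mOBs in 6 of 8 libraries, with a mean log2 ratio of 0.56 ± 1.3, and S4 and S8 went the other way. Thinned to 2000 UMIs per cell, the Ibsp ratio was 1.13. Both are given with no test, since Ibsp helped to choose the cells. Mepe had 8 UMIs in positive and 9 in negative mOBs, too few for a ratio.

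**Figure D3:**
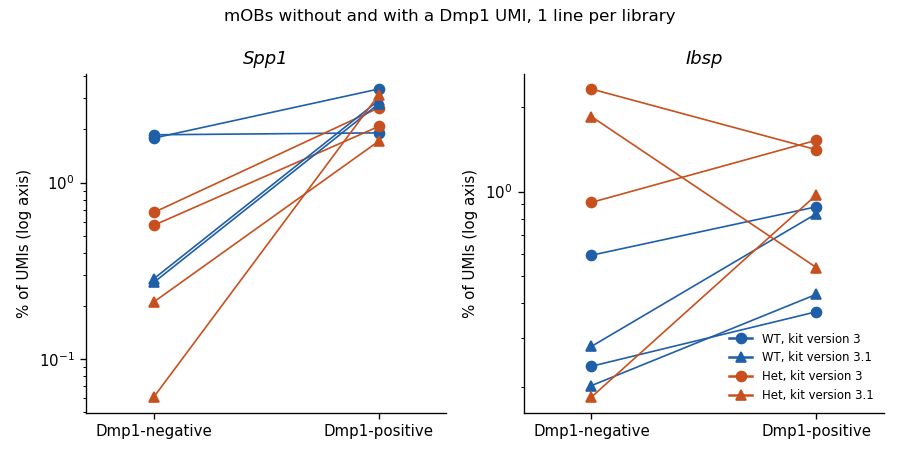
Level of Spp1 and Ibsp (%UMI, log axis) in mOBs with and without a Dmp1 UMI, with a line joining the values of each library, coloured by genotype. Spp1 was higher in the Dmp1-positive cells of all 8 libraries, and Ibsp in 6 of 8.

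The share of mOBs with a Dmp1 UMI overlapped between the genotypes across kit versions. At 2000 UMIs per cell it was 24.7 and 29.9% in WT S1 and S2, 26.6 and 31.3% in Het S3 and S4, 15.1 and 14.5% in WT S5 and S6, and 17.3 and 19.5% in Het S7 and S8. The kit version 3 libraries were above all of version 3.1. The means were 21.0 ± 7.5% in WT and 23.7 ± 6.4% in Het (exact permutation p = 0.6, where 4 against 4 cannot go below 0.0286), a test without the kit version as a term. Within kit version 3 the genotypes overlapped, with Het above WT by 1.65 percentage points in the mean, and within version 3.1 both Het libraries lay above both WT libraries, by 3.63 in the mean. Without thinning, at the full depth of each cell, the direction turned and Het minus WT was -2.28 percentage points. The unthinned shares were 49.3 and 58.4% in WT S1 and S2, 39.2 and 46.9% in Het S3 and S4, 26.8 and 26.0% in WT S5 and S6, and 29.5 and 35.7% in Het S7 and S8, so that both Het libraries lay below both WT libraries in version 3 and above them in version 3.1. A Mepe UMI was found in 1 thinned mOB, in S3.

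Mepe was rare and was carried by a handful of cells. The 46420 kept cells held 295 Mepe UMIs in 64 cells, of which 51 had a single UMI. The 8 cells with at least 5 UMIs held 234 of the 295 (79.3%): 5 were in WT S1, 2 in Het S4 and 1 in Het S7. Per library, eOBs held 95, 0, 0, 50, 1, 0, 17 and 0 Mepe UMIs in S1 to S8, dOBs 3, 0, 1, 2, 0, 2, 5 and 1, mOBs 1, 1, 3, 3, 3, 3, 3 and 0, and all other cells 55, 0, 0, 31, 0, 1, 14 and 0. The other 5 libraries held 1 to 6 Mepe UMIs each. Dspp, the tooth gene next to Dmp1, had no UMI in the 2671 OBs, which allows up to 0.112% of OBs with a UMI.

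The 8 Mepe-rich cells shared other transcripts that the choice of cells had not used. They held Spp1 at 4.20–25.2 %UMI with a median of 15.4, compared with a median of 1.40 %UMI in all eOBs of S1, 0.83 in those of S4 and 0.218 in those of S7, the 3 libraries they came from. Only 459 of 46420 cells reached 4.20 %UMI of Spp1, and 308 of those were OBs. Ibsp was present in 8 of 8, Phex in 7, Dmp1 in 6, the early osteocyte marker Pdpn in 6 and Irx5 in 3, whereas Bglap and Alpl were present in 1 each and Sost in none. By falling Mepe, the cells held 0, 1, 3, 1, 0, 6, 1 and 0 UMIs of the OB marker Ifitm5. For the osteocyte gene Dkk1 they held 0, 0, 0, 9, 0, 0, 0 and 5. In all eOBs of S1, S4 and S7, Ibsp was detected in 86.4, 73.9 and 53.4%, and Bglap in 55.6, 30.4 and 13.8%. Phex was detected in 16.0, 4.35 and 24.1% of them and Dmp1 in 22.2, 13.0 and 12.1%. Col1a1 took 0.133–0.523% of their UMIs, which placed 5 of them among the eOBs. The other 3 were outside the OB selection, 1 of them with 5 endothelial markers.

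**Figure D4:**
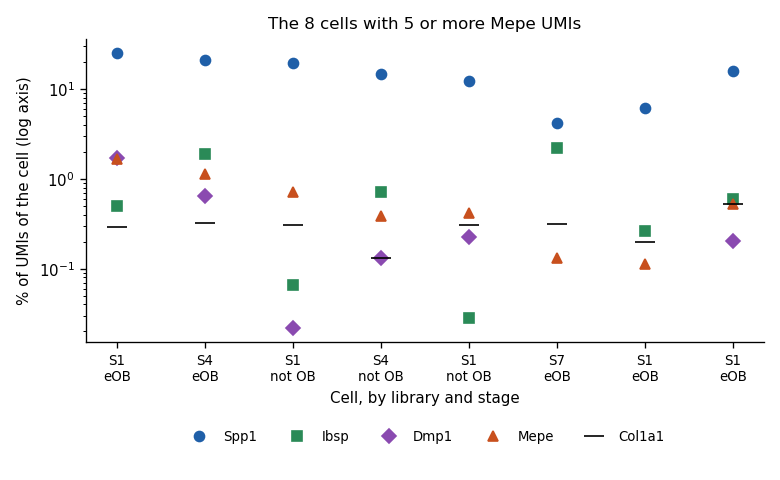
The 8 cells with at least 5 Mepe UMIs, 1 column per cell with its library and stage, and the level of Spp1, Ibsp, Dmp1, Mepe and Col1a1 as percent of the UMIs of the cell (log axis, values of 0 not drawn). Spp1 lies at 4.20–25.2% and Col1a1 at 0.133–0.523%.

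The stage differences of Mepe are given with no test, because the gene passed the filter on low counts through the eOBs of S1, S4 and S7 and did not pass it without any 1 of these 3 libraries. The fitted log2 difference was -3.91 between mOBs and eOBs, -4.25 between dOBs and eOBs and 0.34 between mOBs and dOBs. Between mOBs and eOBs it was -2.11 by DESeq2 and -1.66 with OBs selected by Runx2 and Sp7 together.

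In mOBs, mean Spp1 was lower and mean Ibsp higher in Het than in WT libraries, and the difference of Spp1 did not pass the test over all genes. Spp1 averaged 1.73 ± 0.84 %UMI in WT and 1.13 ± 0.32 in Het (SD, n = 4 each), Ibsp 0.462 ± 0.232 and 1.20 ± 0.61, and Dmp1 0.0349 ± 0.01 and 0.0502 ± 0.0208. For Spp1 both Het libraries lay below both WT libraries within each kit version, and the ranges of the genotypes overlapped across kits. For Ibsp both Het libraries lay above both WT libraries in kit version 3, and the groups overlapped in version 3.1. The share of all genes with such an order was not counted.

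The log2 difference between Het and WT mOBs was -0.60 ± 0.17 for Spp1 (adjusted p = 0.161), 1.31 ± 0.37 for Ibsp and 0.46 ± 0.25 for Dmp1 (adjusted p = 0.536), where 0.518% of all genes tested were called. Mepe was too sparse to be tested. The summed smooth muscle or pericyte markers of these mOBs were higher in all 4 Het than in all 4 WT libraries (0.0221–0.0453 against 0.00636–0.0219 %UMI), and their part in these differences was not tested. Within kit version 3 the Spp1 difference was -0.82 ± 0.17 and was called (adjusted p = 0.0231, 3.46% of genes called), and within version 3.1 it was -0.38 ± 0.17 (adjusted p = 0.706, 0.0287% called). In the version 3 mOBs other marker sums also differed. Haematopoietic markers were at 0.0671 and 0.0488 %UMI in WT and 0.0032 and 0.0164 in Het, and 3 erythroid markers were detected in 86.3 and 100% of WT and 35.4 and 26.0% of Het cells. Fibroblast markers were at 0.325 and 0.272 %UMI in WT and 0.172 and 0.135 in Het, and endothelial markers at 0.00102 and 0.00109 in WT and 0.0032 and 0.00214 in Het. The part of these markers in the Spp1 difference was not tested. The difference between the versions missed the threshold (-0.44 ± 0.25, adjusted p = 0.588, 0.0861% called). Ibsp differed by 1.39 ± 0.51 and 1.24 ± 0.51 within the versions. In version 3.1 Het S7 lay between the WT libraries (0.411 against 0.466 and 0.270 %UMI of Ibsp). In Het S8, 5 of the 42 mOBs held 87.4% of the Ibsp UMIs. DESeq2 called Spp1 at -0.61 (adjusted p = 0.0223), as did edgeR with no filter on low counts (adjusted p = 5.87e-05), which also called Dmp1 (0.46).

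Since Ibsp is a selection gene, its genotype difference was tested in mOBs chosen without it and did not pass. With Runx2 or Sp7 as the requirement it was 1.08 (adjusted p = 0.27), and with both genes required 1.33 (adjusted p = 0.2). In the mOBs that Ibsp helped to choose, the value was 1.58 without Het S7, 1.07 with cells thinned to 2000 UMIs and 0.67 in cells over 5% Col1a1.

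The number of Spp1 UMIs per Ibsp UMI in mOBs combines the 2 levels above and would also move if 1 of them alone did. It was 5.81 and 3.64 in WT S1 and S2, 1.28 and 0.695 in Het S3 and S4, 2.40 and 3.93 in WT S5 and S6, and 2.29 and 0.590 in Het S7 and S8. All 4 WT values lay above all 4 Het values, with WT S5 and Het S7 next to each other, and no test was made because the ratio was formed after the levels were seen. The haematopoietic-like cells had a ratio of 2.97–25.6, in every library above that of its mOBs.

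**Figure D5:**
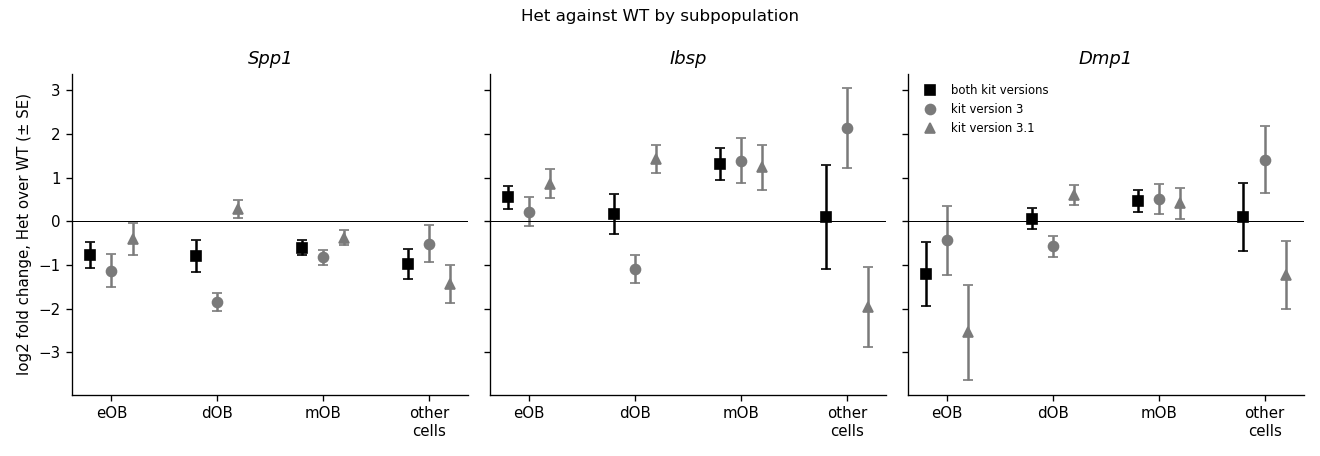
Log2 fold change of Het over WT (edgeR, bars ± SE) for Spp1, Ibsp and Dmp1 in eOBs, dOBs, mOBs and all other cells, for all libraries and for each kit version alone. In mOBs Spp1 lay below 0 and Ibsp above 0 in both kit versions, whereas in dOBs Spp1 lay below 0 in version 3 and above 0 in version 3.1.

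In dOBs the genotype difference of Spp1 was not the same in the libraries of kit version 3 and of version 3.1. Whether kit, software or the animals pooled account for this cannot be told apart. Spp1 was lower in Het than in WT dOBs of kit version 3 by -1.85 ± 0.21 (adjusted p = 0.0165, 0.378% of genes called) and differed by 0.28 ± 0.20 in version 3.1 (adjusted p = 0.948, with 0% called and 603 genes at an unadjusted p under 0.05). The difference between the versions was -2.13 ± 0.29 and was called (adjusted p = 0.0223, 0.151% of genes). Ibsp differed within versions 3 and 3.1 by -1.08 ± 0.32 and 1.42 ± 0.32, and Dmp1 by -0.57 ± 0.25 and 0.60 ± 0.22 (adjusted p of the difference = 0.213). For all 3 genes both Het libraries lay below both WT libraries in version 3 and above them in version 3.1. The share of all genes with this order was not counted. The 3 genes were measured in the same libraries and cells, so they are not 3 separate observations. Over all 8 libraries the differences were -0.79 ± 0.37 for Spp1 (adjusted p = 0.66), 0.17 ± 0.47 for Ibsp and 0.06 ± 0.24 for Dmp1 (adjusted p = 1.0), with 0.00981% of genes called. With no filter on low counts, edgeR called Spp1 over all 8 libraries (-0.79, adjusted p = 7.77e-09).

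No member was called in eOBs or in the other cells, where edgeR called 0% of genes in either fit (338 and 4335 genes had an unadjusted p under 0.05, and DESeq2 called 3 and 1973). In eOBs Spp1 differed by -0.77 ± 0.29, Ibsp by 0.55 ± 0.27 and Dmp1 by -1.20 ± 0.72. With no filter on low counts, edgeR called Spp1 (-0.81, adjusted p = 5.25e-06) and Dmp1 (-1.25, adjusted p = 2.58e-04) in eOBs. In the other cells Spp1 differed by -0.97 ± 0.35 (adjusted p = 0.174, and 0.0479 by DESeq2, which called it), Ibsp by 0.10 ± 1.19 and Dmp1 by 0.10 ± 0.78. Within kit versions 3 and 3.1, Spp1 lay below 0 in eOBs (-1.13 and -0.41) and in the other cells (-0.51 and -1.43), whereas Ibsp in the other cells differed by 2.14 in version 3 and by -1.96 in version 3.1. The Het effect in mOBs minus that in dOBs was 0.18 ± 0.40 for Spp1, 1.13 ± 0.64 for Ibsp and 0.33 ± 0.33 for Dmp1, and edgeR called 0% of genes (504 at an unadjusted p under 0.05, with 3 called by DESeq2).

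Among 47 listed genes of the pathway, which comprise receptors, modifying enzymes, mineralization genes, osteocyte genes and regulators, 41 were tested between stages. From dOBs to mOBs 18 were called higher and 6 lower (13.0% and 13.8% of all genes), and the 18 include the selection gene Sp7. Sost among the 18 and Tll1 among the 6 reached the filter on low counts in fits of a single stage, the one in which they were high, so their differences are given with no test. The median log2 difference was 0.28, compared with -0.03 over all genes. Of the osteocyte genes, Sost, an inhibitor of Wnt signalling, differed by 5.88. Dkk1, another such inhibitor, rose by 3.42 ± 0.26, Pdpn by 1.90 ± 0.22 and Irx5 by 1.75 ± 0.20, whereas the collagenase Mmp13 fell by 1.42.

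Enzymes that modify these glycoproteins were among those called. Phex rose by 4.03 ± 0.30 from dOBs to mOBs, the Dmp1-cleaving protease Bmp1 by 1.15 ± 0.09, the secretory kinase Fam20c by 0.93 ± 0.22, the cathepsin Ctsk by 0.88 ± 0.27 and the gelatinase Mmp2 by 0.65 ± 0.13, and Tll1 differed by -1.25. Of the receptors, the integrin subunit Itgb1 rose by 0.33 ± 0.09, and Itga8, Itga9 and Itgb5 fell by 1.73, 1.28 and 0.58. Of the mineralization genes, the pyrophosphate genes Ank and Enpp1 rose by 0.92 ± 0.21 and 0.78 ± 0.24, and the phosphate transporter Slc20a2 fell by 1.68. The regulators Dlx3, Mef2c, Vdr and Atf4 rose by 2.46, 1.25, 0.91 and 0.82, and Sp7, a selection gene, was higher by 0.78. Adjusted p-values of the genes that rose or fell ranged from 6.59e-09 (Dkk1) to 0.0294 (Itgb5) by edgeR's quasi-likelihood test.

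From eOBs to dOBs 5 of the 41 genes were called higher and 5 lower (7.20% and 8.15% of all genes), and the 5 higher include the selection gene Sp7. Tgm2 here, and Tgm2, Itga4 and Sost between eOBs and mOBs, reached the filter in 1 stage alone and are given with no test. The hyaluronan and osteopontin receptor Cd44 rose by 1.10 ± 0.18, Mmp2 by 0.56, Bmp1 by 0.32 and Itgb1 by 0.32, and Sp7 was higher by 0.61. Mmp9 fell by 2.45, Fbln7 by 1.63, Slc20a2 by 1.06 and Itga9 by 0.70, and the crosslinking enzyme Tgm2 differed by -1.77. Over the whole step from eOBs to mOBs 19 were called higher, Sp7 included, and 9 lower (17.7% and 18.1% of all genes), and the 4 that were called there alone were Alpl (0.53 ± 0.19), Slc20a1 (fell by 1.18), Itga4 (-2.10, no test) and Itga5 (fell by 0.54).

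Compared with all other cells, 27 of 43 tested pathway genes were higher in OBs and 9 lower (13.8% and 23.8% of all genes). Runx2 and Sp7, by which OBs were selected, are among the 27, so their difference was fixed by the choice of cells. Sost and Phospho1, also among them, did not reach the filter on low counts in the other cells alone and are named with no test, Sost at 5.57 and Phospho1, which was barely detected in OBs, with no fold. Dkk1 and Phex were higher by 5.79 and 5.76 on the log2 scale. Of the receptors, Cd44, Itgb3, Itgb5, Itgav and Itgb1 were higher by 1.11, 1.0, 0.97, 0.56 and 0.53, and Itga4 and Itga5 fell by 2.91 and 0.67. The osteoclast enzymes Acp5 and Mmp9 were lower in OBs, by -2.12 and -1.92.

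Between Het and WT mOBs 1 of 38 tested pathway genes was called (0.518% of all genes). The vitamin D receptor Vdr was lower by 1.09 in Het mOBs (SE 0.12, adjusted p = 0.00159 by edgeR). The pathway list had a median difference of 0.06, compared with 0.01 over all genes. In dOBs none of 38 was called (0.00981% of all genes), the lowest p in each group being those of Acp5 (-1.01), Itgb3 (-1.11), Ank (-0.94), Mmp13 (-1.23) and Dlx5 (-0.26), with adjusted p-values of 0.571 to 0.67. In eOBs Phex (1.72), Vdr (-0.99), Capg (1.01), Ank (-0.76) and Itgb3 (-1.0) had the lowest p, and none of 36 was called (0% of all genes). In the other cells Cd44 (-1.01), Mmp13 (-0.83), Fam20c (0.91), Runx2 (0.52) and Slc20a1 (-0.54) were not called either (adjusted p = 0.121 to 0.253).

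Over the 24 sums of 3 stages in 8 libraries, with each gene centred within a library, the genes most like Spp1 were Bmp8a, Cdh15 and the pyrophosphate transporter Ank, with a Pearson correlation of 0.894, 0.889 and 0.862. Those most like Ibsp were Ptgis, Slc36a2 and Nupr1, at 0.973, 0.942 and 0.939, and those most like Dmp1 were Slc35b1, Vapa and Tmem208, at 0.935, 0.914 and 0.893. Among the members the correlation was 0.789 for Ibsp and Dmp1, 0.714 for Spp1 and Ibsp and 0.647 for Spp1 and Dmp1. With Col1a1, whose share defines the stages, it was 0.899 for Ibsp, 0.761 for Dmp1 and 0.473 for Spp1. These values were taken from 6606 genes, share libraries and depth, and carry no test.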

How the data were processed

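Droplet single-cell libraries of 4 WT and 4 Het pools were analysed from the filtered UMI counts that the authors deposited, made with Cell Ranger (5.0.0 for S1 to S4 and 6.0.1 for S5 to S8 per the file headers) on build mm10. The deposited counts were not normalized. The 4 genes, the pathway list and the tests were chosen with earlier results of these data known. Barcodes with at least 500 genes and under 10% mitochondrial UMIs were kept, leaving 46420 of 68625, and doublets were not removed. UMIs were summed per library and class of cells, classes of under 10 cells in a library being left out. Animals were pooled within a library, so p-values measure the spread between pools.

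Sums were tested in edgeR 4.0.16 (R 4.3.3) by quasi-likelihood with filterByExpr and TMM scaling, with a threshold of 0.05 on Benjamini-Hochberg adjusted p over every gene in the fit. Genotype fits had the kit version as covariate, and stage and OB fits had the library as a block. Single values were compared by exact permutation tests (SciPy 1.17.1), log2 ratios with a pseudocount of 0.001 %UMI. Other cells were called X-like when the detected markers of exactly 1 class reached a minimum (haematopoietic, endothelial, smooth muscle or pericyte and chondrocyte 3, the latter with Col2a1 over 1% of UMIs, fibroblast 4, erythroid 5), and haematopoietic-like cells with at least 4 osteoclast or macrophage markers were called osteoclast- or macrophage-like. The genes named are the 4 members, the pathway genes called or, where none was, the gene of each group with the lowest p, and the 3 genes most correlated with each member (log2(CPM + 1), mean of at least 20 CPM). Destn, on the pathway list, had no row of that name. The values of 1 pathway gene are not reported here. Intervals and limits from counts cover counting error only. Promoters came from RefSeq, and all 4 genes matched. The fits were tested on simulated data. Alternatives were DESeq2 1.42.0 and its size factors, no filter on low counts, other OB, stage and mitochondrial limits, selection without Ibsp, thinning to 2000 UMIs, removal of collagen genes or of OBs with 3 markers of another class, each kit alone, no kit term, the replicate block and each library left out. Leaving out only OBs with 3 haematopoietic or endothelial markers, no scaling factor, and Col1a1 bins with no minimum of cells were chosen after seeing the data.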

Additional observations from a re-analysis of the deposited data

Results flagged for a closer look

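Of 32 sets of 4 libraries (4 genes, 4 classes of cells and 2 genotypes), 9 held a library far from the other 3. How many such sets chance would give is not known. The sets mixed both kit versions and reused the same libraries, and many Mepe values rested on few UMIs. These 9 sets are therefore given as a description, with no test. Het S4 stood above the other Het libraries for Ibsp in eOBs (0.181 %UMI, the others 0.0586–0.0766), in dOBs (0.278, the others 0.108–0.124) and in all other cells (0.0409, the others 0.000524–0.00678). Het S4 was also high for Dmp1 in eOBs (0.0367, the others 0.000414–0.00111) and in all other cells (0.00244, the others 0.000119–0.000454), and for Mepe in eOBs (0.0245, the others at most 0.00152). WT S1 was high for Mepe in eOBs (0.00733 %UMI), in dOBs (0.000244) and in all other cells (0.000167). The difference between Het and WT dOBs for Spp1 differed between the kit versions by -2.13 on the log2 scale (edgeR, adjusted p = 0.0223). A barcode of WT S6 that failed the mitochondrial limit, with 19.3% mitochondrial UMIs, held 6 Mepe UMIs.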

How the results depend on the processing

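Mepe had 295 UMIs in all, 79.3% of them in 8 cells, which limits what can be said of it. Spp1 and Dmp1 against all other cells, and Spp1 in Dmp1-positive against negative mOBs, kept direction and call under every alternative run, as did the direction of all 3 genotype differences in mOBs. Removal of OBs with 3 markers of another class left 4 of 8 mOB sums, so Het against WT in mOBs could not be fitted, and left 13 of 24 stage sums. The causes of the changes below were not tested.

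The number of genes called between Het and WT in mOBs was 52 and changed to 536 with no filter on low counts, 136 by DESeq2, 84 with stage limits of 0.5% and 5%, 33 with OBs selected by Runx2 or Sp7, 21 with cells thinned and 0 with no kit version in the model. In dOBs it was 1 and changed to 269 with no filter, 17 with other-class OBs left out, 6 at 1 UMI, 4 by DESeq2, and 0 when thinned, without scaling, without the kit version and under the replicate block. In eOBs it was 0 and changed to 141 with no filter, 19 with other-class OBs left out, 3 by DESeq2, and 1 at 1 UMI, with Runx2 or Sp7, under 5% mitochondrial UMIs and without collagen genes. In the other cells it was 0 and changed to 1973 by DESeq2, 277 when thinned, 89 with no filter and 8 under the replicate block. The difference between the effects in mOBs and dOBs changed from 0 to 91 with no filter, 48 with other-class OBs left out, 3 by DESeq2 and 1 with the stage limits. The same-numbered libraries of a kit did not deviate together (r = -0.056 and -0.026 over 9660 genes), so the block compares libraries that share only a number, and beyond these counts it turned Ibsp (-0.059) and Dmp1 (-0.22) in the other cells.

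Between stages, mOBs against dOBs called 6242 genes without scaling, 771 with other-class OBs left out and 695 when thinned, compared with 1460 higher and 1549 lower (48.5% higher, 9.29% without scaling). mOBs against eOBs called 7053, 981 and 1046 under the same alternatives (49.4% higher, 11% without scaling). dOBs against eOBs called 2912 at 1 UMI, 4035 with Runx2 or Sp7, 152 with other-class OBs left out and 436 when thinned (46.9% higher, 36.7% with DESeq2 size factors, 29.7% without scaling). OBs against all other cells called 3561 with other-class OBs left out. Spp1 in mOBs against eOBs missed the threshold at 3 UMIs (0.33), under 5% mitochondrial UMIs (0.61), with haematopoietic or endothelial OBs left out (0.39), without scaling (0.13) and when thinned (0.17), and turned to -0.15 with other-class OBs left out. Spp1 in mOBs against dOBs missed it when thinned (0.25) and with other-class OBs left out (0.36), where Dmp1 missed it in mOBs against dOBs (0.94) and against eOBs (0.85) and turned to -0.091 in dOBs against eOBs. Spp1 in dOBs against eOBs turned to 0.14 with Runx2 or Sp7. Mepe, given with no test, was -2.11 by DESeq2 and -1.66 with Runx2 and Sp7 in mOBs against eOBs, and in mOBs against dOBs turned to -0.60 with the stage limits and -0.0068 without scaling.

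For the genotype in mOBs, Spp1 passed the threshold with no filter (-0.60), by DESeq2 (-0.61) and in kit version 3 (-0.82), and Dmp1 with no filter (0.46). Ibsp, a selection gene, was 1.31 with no filter and 1.07 when thinned. The Ibsp difference of effects was 1.13 with no filter and turned to -0.84 with the stage limits, that of Dmp1 turned to -0.30 with Runx2 and Sp7 and -0.071 under 5% mitochondrial UMIs, where that of Spp1 turned to -0.16. In dOBs Dmp1 turned at 1 UMI (-0.34), 3 UMIs (-0.073), with Runx2 or Sp7 (-0.38), with haematopoietic or endothelial OBs left out (-0.31), thinned (-0.13), in kit version 3 (-0.57) and with no kit version (-0.14), Ibsp with Runx2 and Sp7 (-0.19), Runx2 or Sp7 (-0.24), in kit version 3 (-1.08) and with no kit version (-0.62), and Spp1 in kit version 3.1 (0.28). In eOBs Ibsp turned at 1 UMI (-0.19) and with Runx2 or Sp7 (-0.21), and Dmp1 with other-class OBs left out (1.18). In the other cells Ibsp turned at 1 UMI (-0.13) and in kit version 3.1 (-1.96), and Dmp1 at 1 UMI (-0.030), with Runx2 and Sp7 (-0.37) and in kit version 3.1 (-1.23). In Dmp1-positive against negative mOBs Ibsp was 1.13 when thinned, and Mepe, with too few UMIs for a ratio, turned at 3 UMIs (-0.0160) and when thinned (-0.112). Without thinning, the share of mOBs with a Dmp1 UMI was lower in Het, by -2.28 percentage points.

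Leaving out 1 library at a time gave 11 to 193 genes called in mOBs, 0 to 2 in dOBs, 0 to 7 in eOBs, 0 to 8 for the difference of effects and 1046 (without S6) to 1813 in dOBs against eOBs, 1124 without S7. The mOB count was 11 without S2, 14 without S1, 30 without S4, 178 without S8 and 193 without S7. In these edgeR fits Spp1 ranged from -0.68 to -0.42, Ibsp from 0.87 to 1.60 and Dmp1 from 0.18 to 0.65 in mOBs. Spp1 ranged from 0.48 (without S3, adjusted p = 0.0606) to 0.71 in mOBs against eOBs. In dOBs against eOBs it ranged from -0.49 (without S1, adjusted p = 0.0367) to -0.25. Between genotypes, Spp1 ranged from -1.14 to -0.39 in dOBs and Dmp1 from -3.25 to -0.75 in eOBs. The Ibsp difference of effects ranged from 0.59 to 1.72. Het minus WT in the share of thinned mOBs with a Dmp1 UMI ranged from 0.11 to 5.59 percentage points. Ranges that crossed 0 were those of Mepe in mOBs against dOBs (-0.03 to 0.45) and in Dmp1-positive against negative mOBs (-0.045 to 0.065), the Spp1 difference of effects (-0.22 to 0.52), Ibsp (-0.24 to 0.70) and Dmp1 (-0.20 to 0.36) in dOBs, and Ibsp (-0.96 to 1.05) and Dmp1 (-0.82 to 0.62) in the other cells.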

Other observations

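The barcode of WT S6 outside the cell filter with 6 Mepe UMIs also held 21 Sost, 34 Dkk1 and 8 Phex UMIs among 4009, with Spp1 at 0.424 and Dmp1 at 0.200 %UMI. None of the 8 Mepe-rich cells that passed the filter held a Sost UMI, and Spp1 in them was at 4.20 %UMI or more.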
